A study of Mus musculus with 4 samples.

Results

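The genes described here are the Notch receptors Notch1 and Notch2, the Hes repressors Hes1 and Hes5, the 4 Id genes Id1, Id2, Id3 and Id4, and the homeodomain gene Hopx, in cells sorted from injured and uninjured mouse spinal cord. They were taken by gene name, without use of their values, and make up 9 of the 32287 gene features in each of the 2 matrices. Each name matched 1 feature. Cells came from mice in which a tamoxifen-inducible Cre under the promoter of the gap junction gene Cx30 switches on tdTomato in cells that use this promoter, astrocytes among them (Cx30-Tom). Mice of both conditions were given tamoxifen and an intravenous pool of adeno-associated viruses (AAV), in which each candidate enhancer drives a barcoded reporter. One condition had a contusion injury and was sampled 3 days later, and the other was uninjured. Segments of 5 mm around the lesion, or at the matching level, were digested with papain, and tdTomato-positive whole cells were sorted and run on the 10x Chromium 3′ platform. The series text states 1 to 2 adult animals of each sex per condition, pooled into 1 gene expression library per condition. No difference between conditions therefore has a replicate check, no test between conditions was possible, and differences between conditions, animals and libraries cannot be told apart. Intervals in this text are 95% intervals and cover counting error only.

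Notch receptors are cleaved when a ligand on a neighbouring cell binds them, and the released intracellular part joins the DNA-binding protein RBPJ (also called CSL) to switch on genes such as Hes1 and Hes5, which encode basic helix-loop-helix (bHLH) repressors. Id proteins are helix-loop-helix proteins without the basic DNA-binding region that bind E proteins and keep other bHLH factors off DNA, and the Id genes are well-known targets of bone morphogenetic protein (BMP) signalling through SMADs. HOPX is an atypical homeodomain protein that does not bind DNA by itself and marks radial glia and subsets of astrocytes. In the nervous system the Hes and Id genes are known for holding progenitors back from neuronal differentiation and for a part in making astrocytes.

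The members lie on separate parts of the genome (GRCm38, matched by Ensembl identifier). Notch1 spans chr2:26457903-26516663 on the minus strand and Notch2 chr3:98013527-98150361 on the plus strand. Hes1 lies at chr16:30064384-30067796 (plus) and Hes5 at chr4:154960923-154962371 (plus). Id1 lies at chr2:152736251-152737410 (plus), Id2 at chr12:25093799-25097140 (minus), Id3 at chr4:136143497-136145755 (plus) and Id4 at chr13:48261228-48266026 (plus). Hopx spans chr5:77086988-77115121 on the minus strand. All 9 are annotated as protein-coding.

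RefSeq promoter windows (GRCm38.p6, 250 bases before to 50 after the annotated start) were matched for 7 of the 9 genes, in 8 windows, since Hopx had a pair of them. Each window was searched on both strands for TGGGAA, the core read by CSL, and for GGCGCC, a GC-rich element of BMP-responsive promoters. These are 2 of 7 motifs that were searched, picked for the Notch and BMP pathways, and GGCGCC reads the same on both strands. The 250 bases before the start are printed for Hes5 and Id4, the members in whose windows both motifs were found. Both stretches end before the annotated gene begins. The RefSeq starts of Id2, Id3, Notch1 (window chr2:26503773-26504072) and Notch2 lie inside the annotated gene, as does that of the Hopx window at chr5:77095218-77095517. Those windows thus do not stand for the sequence before the annotated gene. Capitals mark TGGGAA and GGCGCC on either strand, the former read as TTCCCA on the opposite one.
Hes5, chr4:154960673-154960922 (+): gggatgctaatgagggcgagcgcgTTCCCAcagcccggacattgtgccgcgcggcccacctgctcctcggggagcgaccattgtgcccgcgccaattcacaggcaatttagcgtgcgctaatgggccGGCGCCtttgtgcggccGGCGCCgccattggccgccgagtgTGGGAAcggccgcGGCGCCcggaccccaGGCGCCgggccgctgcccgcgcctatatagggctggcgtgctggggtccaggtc
Id4, chr13:48260866-48261115 (+): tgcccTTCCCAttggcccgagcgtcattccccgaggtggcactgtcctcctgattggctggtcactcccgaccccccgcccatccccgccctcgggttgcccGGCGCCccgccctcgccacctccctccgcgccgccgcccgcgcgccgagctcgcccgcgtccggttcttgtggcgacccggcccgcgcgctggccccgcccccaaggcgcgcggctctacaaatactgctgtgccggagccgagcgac
Hes5 held 2 copies of TGGGAA, which start 226 and 82 bases before the start site, and 4 copies of GGCGCC. Id4 held 1 of each, Id2 held 1 GGCGCC, and neither was found in the windows of Id3, Notch1, Notch2 or Hopx. Among 32851 promoter windows of the same length, 25.6% held TGGGAA and 11.9% held GGCGCC. A match is a stretch of letters and not a measured binding site.

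After filtering, 879 injured cells held 8499672 gene UMIs (unique molecular identifiers, which count captured RNA molecules) with a median of 6816 per cell, and 4159 uninjured cells held 15543460 with a median of 3343. The 2 libraries shared 7 cell barcodes. Clustering was run without the 9 genes and without the pathway genes named below. It gave 13 clusters, of which 11 were named from marker lists in 7 classes. Astrocyte-like cells numbered 388 injured and 3312 uninjured, ependymal-like 143 and 31, endothelial-like 70 and 26, fibroblast-like 43 and 95, microglia or macrophage-like 129 and 32, oligodendrocyte precursor (OPC)-like 41 and 14, and mural-like 13 and 3. Classes with under 20 cells in a library are not compared there. The sort thus also held cells other than astrocytes. In astrocyte-like cells the 8 astrocyte markers summed to 12781 CPM (counts per 1000000 gene UMIs of the group) in injured and 10461 CPM in uninjured cells.

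The astrocyte-like cells of the conditions differed in make-up. Of the 388 injured cells, 338 were in a cluster led by Gfap, Lcn2 and Tgm1, which held 16 uninjured cells. The uninjured cells were spread over clusters led by Acvr1c (1184 cells), Gm26917 and Taco1 (766), Hsd11b1 (715) and Shisa9 (631). Median depth was 3928 UMIs per injured and 3366 per uninjured astrocyte-like cell, and mitochondrial genes took 6.98% and 6.18% of UMIs. By Xist and Y-linked transcripts, 127 injured astrocyte-like cells scored male and 73 female, against 2285 and 2 in the uninjured library. The uninjured library thus held almost no cells scored female, so that sex and condition are largely mixed, and values from scored male cells alone are given below where they move a result. The scored male cells were deeper than all astrocyte-like cells and differed more in depth, with medians of 6922 UMIs injured and 3869 uninjured. The part that cluster make-up and sex play in the differences below was not tested beyond these values.

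**Figure D1:**
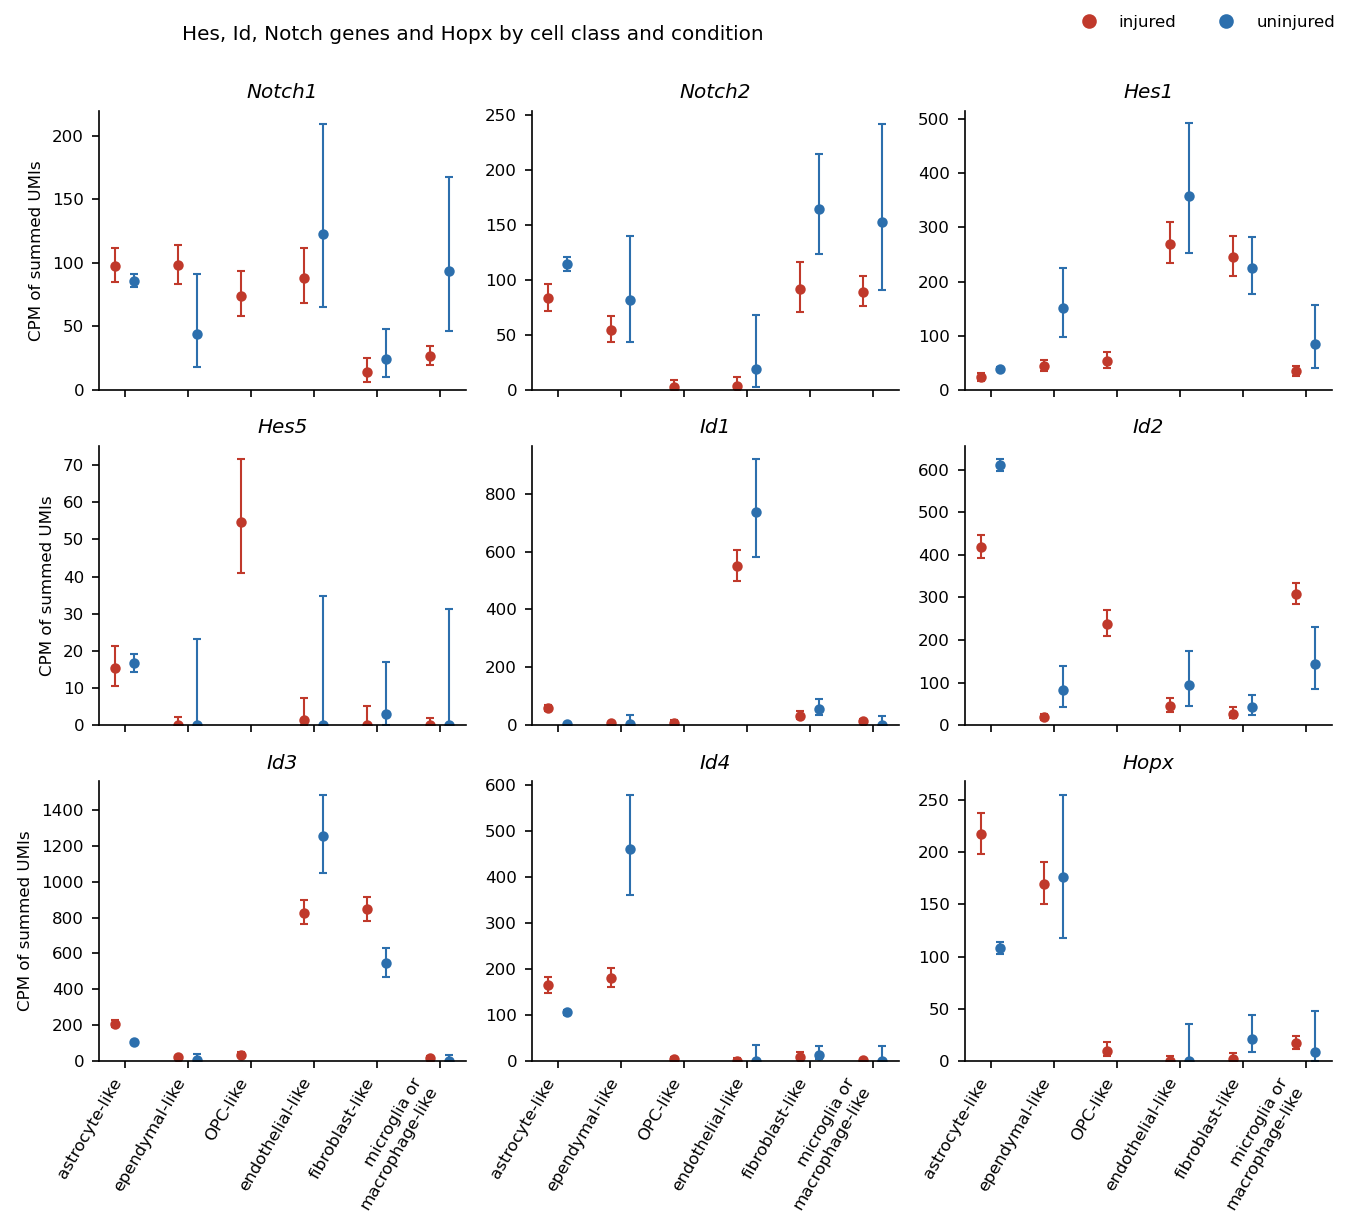
Level of each gene (CPM of summed UMIs, linear axis from 0, with a separate scale per gene) in 6 cell classes, injured in red and uninjured in blue; bars are exact Poisson 95% intervals of the count, and groups under 20 cells are left out. Id1 and Id3 peaked in endothelial-like or fibroblast-like cells, Id2 in astrocyte-like cells, and Id4 and Hopx in astrocyte-like and ependymal-like cells.

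Injured and uninjured astrocyte-like cells were compared first. Id1 stood apart, at about 10 times the uninjured level in the injured library, while Id3 and Hopx were close to 2-fold higher, Id4 was 1.56 times as high, and Hes1, Id2 and Notch2 were lower by less than 2-fold. For Hes5 and Notch1 the interval of the ratio included 1. With 1 CPM added to both sides, 1 of the 9 genes was 2-fold or more higher, against 14.1% of the 9995 genes that reached 10 CPM in either condition. None of the 9 was 2-fold or more lower, against 7.24% of those genes. The median log2 ratio of the 9 genes was 0.18, beside 0.04 over all genes tested. The 9 genes as a set were thus close to the background of this comparison, and the differences lay in single members.

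Notch1 and Notch2 encode the receptors. Notch1 had 217 UMIs in injured astrocyte-like cells (97.7 CPM, interval 85.1 to 112) and 1065 in uninjured cells (86.0 CPM, 80.9 to 91.3), a ratio of 1.14 (0.977 to 1.32). A Notch1 UMI was found in 30.2% of the injured cells and 26.4% of the uninjured ones. After each cell was thinned to 1000 UMIs these shares were 4.21% (2.38 to 6.85%) and 9.0% (8.03 to 10.0%), so the order of the shares went against that of the CPM and no direction is read for Notch1. Notch2 was lower by CPM in injured cells, with 185 UMIs (83.3 CPM, 71.7 to 96.2) against 1419 (115 CPM, 109 to 121), a ratio of 0.727 (0.620 to 0.848). A Notch2 UMI was found in 29.9% (25.4 to 34.7%) of injured and 32.5% (30.95 to 34.2%) of uninjured cells. After thinning these shares were 7.02% (4.596 to 10.2%) and 11.1% (10.03 to 12.2%). The Notch2 shares had the same order as the CPM, but their intervals overlapped before and after thinning.

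Across classes the receptors had different profiles. In the injured library Notch1 was at 98.1 CPM in ependymal-like, 97.7 in astrocyte-like, 88.1 in endothelial-like and 74.3 in OPC-like cells, and the intervals of neighbours in this order overlapped. It was lower in microglia or macrophage-like cells (26.4 CPM) and fibroblast-like cells (13.9 CPM). Notch2 was at 91.5 CPM in fibroblast-like, 89.3 in microglia or macrophage-like and 83.3 in astrocyte-like cells, with overlapping intervals, and at 54.7 CPM in ependymal-like cells. Endothelial-like and OPC-like cells had 3 Notch2 UMIs each in the injured library (4.01 and 3.09 CPM), so Notch2 was 20.8 times (7.01 to 102) as high in astrocyte-like as in endothelial-like cells while Notch1 was 1.11 times (0.838 to 1.48) as high. The Notch1 order in uninjured cells was led by endothelial-like cells (123 CPM, 65.3 to 210), whose interval overlapped that of microglia or macrophage-like cells (93.6 CPM) and of astrocyte-like cells.

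Hes1 and Hes5 encode the Notch-dependent repressors. Hes1 had 52 UMIs in injured astrocyte-like cells (23.4 CPM, 17.5 to 30.7) and 490 in uninjured cells (39.6 CPM, 36.1 to 43.2), a ratio of 0.592 (0.436 to 0.789) and a log2 ratio of -0.73. The injured value rested on 27 cells with a Hes1 UMI (6.96% of cells, against 12.6% of uninjured cells), and 2 of these cells held 40.4% of its UMIs. In scored male cells alone Hes1 was at 33.7 against 40.3 CPM, a ratio of 0.837 (0.571 to 1.19), and in cells chosen by an Aldh1l1 UMI in place of clusters the direction turned, to a log2 ratio of 0.25. No direction for Hes1 in astrocyte-like cells can thus be read without naming the cells that were taken. Hes5 had 34 UMIs (15.3 CPM, 10.6 to 21.4) in 15 injured cells and 206 UMIs (16.6 CPM, 14.4 to 19.1) in 136 uninjured cells, a ratio of 0.920 (0.621 to 1.33).

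The 2 Hes genes were distributed in different ways over the classes. Hes1 was highest in endothelial-like cells (270 CPM injured, 358 uninjured) and fibroblast-like cells (245 and 225 CPM), whose intervals overlapped in both libraries. Injured endothelial-like cells had 11.5 times (8.46 to 15.9) the astrocyte-like level. Next in the injured library came OPC-like (53.6 CPM), ependymal-like (44.0), microglia or macrophage-like (34.4) and astrocyte-like cells (23.4), each overlapping its neighbour. This order turned without the 5% of cells with the highest doublet scores, where OPC-like cells had 35.2 CPM, ependymal-like 43.2 CPM and microglia or macrophage-like cells 36.6 CPM. Hes5 had 53 UMIs in injured OPC-like cells (54.7 CPM, 41.0 to 71.5), or 3.57 times (2.28 to 5.67) the injured astrocyte-like CPM. After thinning to 1000 UMIs, however, 0 of 41 OPC-like cells had a Hes5 UMI (interval up to 8.60%), against 1.69% (0.621 to 3.63%) of astrocyte-like cells. In OPC-like cells 2 cells held 35.8% of the UMIs, and no order of these classes is read for Hes5. No Hes5 UMI was counted in ependymal-like or microglia or macrophage-like cells of either library. Against the floor of 3 counts per group, Hes5 in injured astrocyte-like cells was at least 8.59-fold higher than in ependymal-like cells and at least 9.65-fold higher than in microglia or macrophage-like cells. In the uninjured library the smaller groups could not show such a difference.

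Id1 showed the largest difference of the 9 genes between the astrocyte-like cells of the conditions. It had 135 UMIs in injured cells (60.8 CPM, 51.0 to 71.9) and 73 in uninjured cells (5.90 CPM, 4.62 to 7.41), a ratio of 10.3 (7.70 to 13.9) and a log2 ratio of 3.16. An Id1 UMI was found in 15.5% (12.01 to 19.5%) of injured cells but 1.93% (1.49 to 2.46%) of uninjured cells, and in 5.06% and 0.431% at 1000 UMIs per cell. In microglia or macrophage-like cells, with median depths of 13386 and 3064 UMIs, the shares were 9.30% and 0%, and 0.826% and 0% after thinning. The intervals of the uninjured shares reached 10.9% with 32 cells and 12.3% with 28 thinned cells. These shares can thus show neither a difference nor its absence. Id1 counts were uneven, with up to 21 UMIs in a cell, and 2 injured cells held 23.7% of its UMIs. In scored male cells alone the levels were 32.7 and 5.83 CPM, a ratio of 5.61 (3.54 to 8.78), and injured cells scored female had 108 CPM (84.4 to 137). Without the 5% of cells with the highest doublet scores the injured level was 36.7 CPM and the log2 ratio 2.41. The direction of Id1 was thus kept in these subsets while its size varied by over 1.5 times.

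Id3 was also higher in injured astrocyte-like cells, with 461 UMIs (208 CPM, 189 to 227) against 1313 (106 CPM, 100 to 112), a ratio of 1.96 (1.76 to 2.18). The shares of cells were closer, at 33.5% and 27.7%, or 12.6% (9.37 to 16.5%) and 9.70% (8.71 to 10.8%) after thinning, where the intervals overlapped. A single injured cell held up to 39 UMIs of Id3, and 2 cells held 15.8% of the injured UMIs. Scored male cells alone gave 169 against 104 CPM, a ratio of 1.62 (1.37 to 1.91), and injured cells scored female had 278 CPM (239 to 322).

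Both genes are known for high levels in blood vessels, and their highest class was endothelial-like or fibroblast-like. Id1 was at 549 CPM (497 to 604) in injured and 736 CPM (582 to 918) in uninjured endothelial-like cells, above every other class compared in the same library without overlap. Id3 was at 828 CPM (764 to 896) and 1255 CPM (1050.5 to 1487) in endothelial-like cells and at 847 CPM (781 to 917) and 545 CPM (468 to 631) in fibroblast-like cells. These classes overlapped in the injured library and not in the uninjured library. Transcripts of these classes moved with the astrocyte-like difference: the 7 endothelial markers summed to 16.2 CPM in injured and 2.02 CPM in uninjured astrocyte-like cells (4 of 7 with a UMI in both, and Cdh5, Slco1a4 and Tie1 at 0), against 9509 and 12773 CPM in endothelial-like cells. The 7 fibroblast markers summed to 113 CPM injured (5 of 7 with a UMI) and 86.7 CPM uninjured (7 of 7). The 8 mural markers summed to 151 CPM (5 of 8) and 50.3 CPM (7 of 8) and include Tagln, which was also among the leading genes of the Gfap and Lcn2 cluster. In the 202 injured and 2137 uninjured astrocyte-like cells without a UMI of any of these markers, an alternative chosen after seeing the data that kept shallower cells (median 2737 and 3047 UMIs), Id1 was at 44.6 against 6.81 CPM, a ratio of 6.55 (4.10 to 10.4). Id3 was there at 159 against 107 CPM, a ratio of 1.49 (1.22 to 1.80). In these cells Hes1 had 5 UMIs and Hes5 had 4 UMIs in the injured library, with log2 ratios of -2.35 and -1.29.

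Id2 was lower in injured astrocyte-like cells, with 928 UMIs (418 CPM, 391 to 446) against 7563 (611 CPM, 597 to 625), a ratio of 0.684 (0.638 to 0.733). A UMI of Id2 was found in 61.3% of injured and 71.7% of uninjured cells, and in 27.5% and 40.7% at 1000 UMIs per cell, so share and CPM had the same order. Male cells alone gave 436 against 616 CPM. Among classes, Id2 was highest by CPM in astrocyte-like cells of both libraries without overlap, followed in the injured library by microglia or macrophage-like (308 CPM) and OPC-like cells (238 CPM), and by endothelial-like, fibroblast-like and ependymal-like cells (45.4, 27.7 and 19.0 CPM). After thinning, the injured astrocyte-like share (23.0 to 32.5%) overlapped those of microglia or macrophage-like (19.8%, 13.1 to 28.1%) and OPC-like cells (19.5%, 8.82 to 34.9%). In OPC-like cells 2 cells held 32.9% of the Id2 UMIs. The injured order of these 3 classes is thus one of CPM only. The astrocyte-like level was 22.0 times (15.5 to 32.3) the ependymal-like level in the injured library and 7.45 times (4.35 to 14.0) in the uninjured library. The latter depended on the cells taken: when cells under 1000 gene UMIs were left out, the uninjured levels were 615 CPM in astrocyte-like and 167 CPM in ependymal-like cells. The order of the lowest classes was not firm either, since without the 5% of cells with the highest doublet scores injured fibroblast-like cells had 14.4 CPM of Id2, below ependymal-like cells at 18.8 CPM.

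Id4 was higher in injured astrocyte-like cells, with 365 UMIs (164 CPM, 148 to 182) against 1306 (105 CPM, 99.8 to 111), a ratio of 1.56 (1.38 to 1.75). The share of cells was 39.9% against 28.4%, or 15.4% (11.9 to 19.6%) against 10.0% (9.001 to 11.1%) after thinning. Microglia or macrophage-like cells, which had 1 Id4 UMI in the injured library and none in the uninjured, gave shares of 0.775% and 0% (interval up to 10.9%). Ependymal transcripts moved with Id4 and Hopx: the 8 ependymal markers summed to 140 CPM in injured (6 of 8 with a UMI, Ccdc153 and Tmem212 at 0) and 40.9 CPM in uninjured astrocyte-like cells (8 of 8), against 4077 and 7224 CPM in ependymal-like cells. Their part in the Id4 and Hopx differences was not tested. Id4 had the narrowest range of the 9 genes over the 16 other processing choices, with log2 ratios from 0.56 to 0.73. It was at 180 CPM in injured ependymal-like cells, where its interval overlapped that of astrocyte-like cells, and at 461 CPM (361 to 579) in uninjured ependymal-like cells, 4.37 times (3.40 to 5.53) the astrocyte-like level. No Id4 UMI was found in endothelial-like cells, so that Id4 and Id1 had their highest levels in different classes.

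Hopx was 2-fold higher in injured astrocyte-like cells, with 483 UMIs (217 CPM, 199 to 238) against 1342 (108 CPM, 103 to 114), a ratio of 2.01 (1.80 to 2.23). With 1 CPM added to both sides it lay at a log2 ratio of 0.998, just under the 2-fold line, and is not counted as past it. The share of cells was 38.1% against 24.9%, or 18.0% (14.1 to 22.4%) against 8.63% (7.68 to 9.65%) after thinning. In microglia or macrophage-like cells 14.0% (8.48 to 21.2%) and 3.13% (0.0791 to 16.2%) had a UMI, with overlapping intervals (1.65% and 0% after thinning). In scored male cells alone the ratio was 1.55 (1.30 to 1.83), from 164 against 106 CPM, and injured cells scored female had 305 CPM (264 to 350). Hopx was at 170 CPM (151 to 191) in injured and 177 CPM (117 to 255) in uninjured ependymal-like cells. By CPM, astrocyte-like cells lay above ependymal-like cells in the injured library and below them in the uninjured library, without overlap of neighbours. After thinning, the ependymal-like shares were 11.97% (7.13 to 18.5%) injured and 12.9% (3.63 to 29.8%) uninjured. These intervals overlapped those of astrocyte-like cells in both libraries, so the order is one of CPM only. The uninjured ependymal-like value rested on 28 UMIs, of which 2 of 31 cells held 39.3%. Of the injured ependymal-like UMIs, 37.1% were in 2 cells, and the level was 126 CPM without the highest doublet scores. The other classes compared had 21.3 CPM or less.

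Most of the tested genes that respond to cell dissociation were also higher in injured astrocyte-like cells. Several encode transcription factors of the AP-1 family. The paper reports this family as raised after injury in all glial cells of its single-nucleus data, with Junb and Atf3 among those prominent in astrocytes and ependymal cells. In the ependymal-like cells here both were lower in the injured library, with Junb at 116 against 511 CPM and Atf3 at 156 against 669 CPM. Which part of the levels here comes from injury and which from dissociation was not tested. Of 12 such early genes, 8 were at 10 CPM or more in astrocyte-like cells. There 6 of the 8 were 2-fold or more higher in the injured library and none 2-fold lower, with a median log2 ratio of 1.90. In the same astrocyte-like cells Btg2 was at 22.5 against 11.0 CPM, and Dusp1, a phosphatase that acts on MAP kinases, went the other way, at 13.1 against 24.5 CPM (ratio 0.534, 0.351 to 0.782). Fos was at 122 against 18.0 CPM, Jun at 124 against 50.2 CPM, Junb at 52.2 against 8.16 CPM, Egr1 at 25.2 against 4.12 CPM, Ier2 at 13.1 against 4.20 CPM and Atf3 at 18.9 against 0.565 CPM. These genes encode stress-responsive and growth-responsive transcription factors, apart from Ier2, which is an early response gene of less known function. Their part in the values of the 9 genes was not tested.

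**Figure D2:**
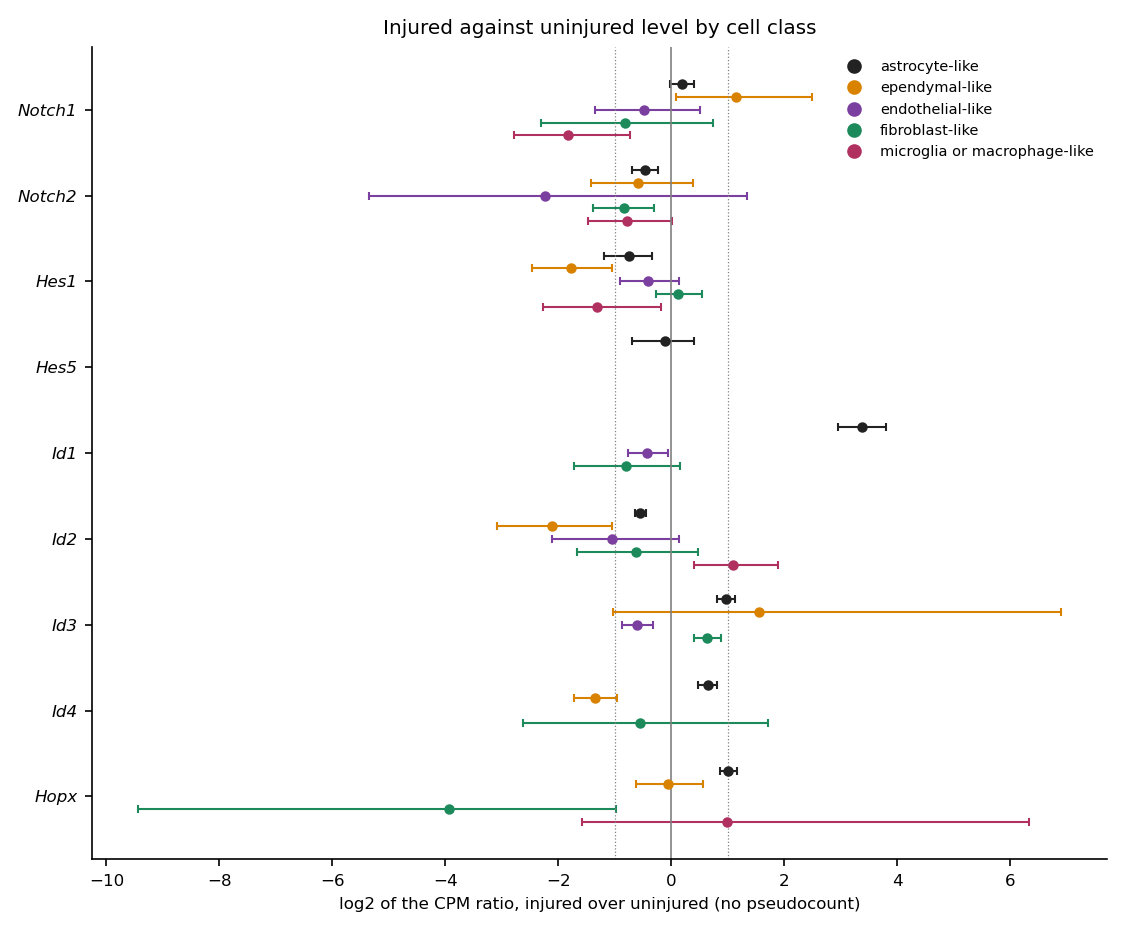
log2 ratio of CPM, injured over uninjured, without a pseudocount, in the 5 classes with at least 20 cells in both libraries; bars are exact conditional binomial 95% intervals of the ratio, dotted lines mark 2-fold, and genes under 10 CPM in both libraries or with 0 UMIs in one are left out. Id1 lay far right in astrocyte-like cells (black) and left of 0 in endothelial-like cells (purple), and Id4 lay on opposite sides in astrocyte-like and ependymal-like cells (orange).

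The same comparison was made in the other 4 classes with at least 20 cells in both libraries. In endothelial-like cells, Id1 was at 549 against 736 CPM (ratio 0.746, 0.584 to 0.963) and Id3 at 828 against 1255 CPM (0.660, 0.546 to 0.802), both lower in the injured library, while they were higher in injured astrocyte-like cells. Of the uninjured UMIs, 2 of 26 cells held 35.3% for Id3 and 32.1% for Id1. After thinning, a UMI of Id3 was found in 50.7% (38.2 to 63.2%) of injured and 50% (29.9 to 70.1%) of uninjured endothelial-like cells. For Id1 these shares were 29.9% (19.3 to 42.3%) and 38.5% (20.2 to 59.4%). For Hes1 (0.752, 0.530 to 1.09) and Notch1 (0.719, 0.393 to 1.42) the interval of the ratio included 1. None of 6 members tested was 2-fold or more higher, against 14.7% of all genes tested, and 2 of 6 were lower, against 16.7%. These were Id2 (34 against 10 UMIs) and Notch2 (3 against 2 UMIs), whose intervals included 1. The members' median log2 ratio was -0.54, beside -0.11 over all genes.

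In ependymal-like cells, which line the central canal, 3 members were lower with intervals below 1. Hes1 was at 44.0 against 151 CPM (74 and 24 UMIs, ratio 0.290, 0.181 to 0.481), Id2 at 19.0 against 82.0 CPM (32 and 13 UMIs, 0.232, 0.118 to 0.481) and Id4 at 180 against 461 CPM (303 and 73 UMIs, 0.391, 0.302 to 0.512). The uninjured values of Hes1 and Id2 rested on few cells, as 2 of 31 cells held 54.2% of the Hes1 and 61.5% of the Id2 UMIs, and uninjured Id2 was at 167 CPM with at least 1000 gene UMIs per cell. After thinning, an Id4 UMI was found in 16.9% (11.1 to 24.1%) of injured and 38.7% (21.9 to 57.8%) of uninjured ependymal-like cells, with overlapping intervals. Notch1 was higher, at 98.1 against 44.2 CPM (165 and 7 UMIs, ratio 2.22, 1.05 to 5.61). Hopx was at a ratio of 0.962 (0.652 to 1.47), with 37.1% of its 286 injured UMIs in 2 cells and up to 80 UMIs in a cell. Of 7 members tested, 3 were 2-fold or more lower, against 16.2% of all genes tested, and 2 were higher, against 12.2%. The second of the higher ones was Id3, with 31 against 1 UMIs and an interval that included 1. The 8 ependymal markers summed to 4077 CPM among injured cells and to 7224 CPM among uninjured cells, and the part of this difference in the values above was not tested. The members' median log2 ratio was -0.58, beside -0.16 over all genes tested.

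In fibroblast-like cells Id3 was higher in the injured library (847 against 545 CPM, ratio 1.55, 1.31 to 1.85) and Notch2 was lower (91.5 against 164 CPM, 0.557, 0.383 to 0.813), while Hes1 was at a ratio of 1.09 (0.826 to 1.45). Of the 611 injured Id3 UMIs, 2 of 43 cells held 31.1%, with 102 in a cell, and the injured level was 596 CPM without the 5% of cells with the highest doublet scores, so the size of the Id3 difference rested largely on few cells. Hopx had 1 UMI against 7 UMIs. No member of 8 tested was 2-fold or more higher, against 14.6% of all genes tested, and 1 (Hopx) was lower, against 17%. The members' median log2 ratio was -0.69, beside -0.03 over all genes, and the fibroblast markers summed to 16555 CPM among injured cells and 29382 CPM among uninjured cells.

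In microglia or macrophage-like cells Id2 was higher in the injured library, with 583 against 17 UMIs (308 against 145 CPM, ratio 2.13, 1.32 to 3.68). Notch1 (50 and 11 UMIs, ratio 0.282, 0.145 to 0.601) and Hes1 (65 and 10 UMIs, 0.404, 0.206 to 0.881) were lower, and Notch2 was at 0.583 (0.358 to 1.01). Id1 and Id3 had 30 and 33 UMIs in the injured library and none in the uninjured library, where 3 counts would be 25.5 CPM, above both injured levels (15.9 and 17.4 CPM), so no fold is given. They count among the 3 of 7 members tested that were 2-fold or more higher, against 18% of all genes tested, and 2 were lower, against 22.3%. The members' median log2 ratio was 0.91, beside -0.11 over all genes. The uninjured groups of these 4 classes held 26 to 95 cells, none scored female, at median depths of 3064 to 4362 UMIs per cell. The injured groups held 19 to 59 cells scored female at median depths of 7972 to 13386 UMIs. Most of the 12 early genes were at lower levels in the injured than in the uninjured microglia or macrophage-like and ependymal-like cells. In microglia or macrophage-like cells Fos was at 682 against 2077 CPM, Jun at 783 against 4196 CPM, Egr1 at 156 against 2426 CPM and Atf3 at 593 against 2324 CPM. In ependymal-like cells Fos was at 1288 against 3047 CPM and Atf3 at 156 against 669 CPM. Fos in endothelial-like cells was close between conditions, at 2366 against 2207 CPM, and in fibroblast-like cells it was at 1314 against 2469 CPM. The part of sex, depth and early genes in these differences was not tested.

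**Figure D3:**
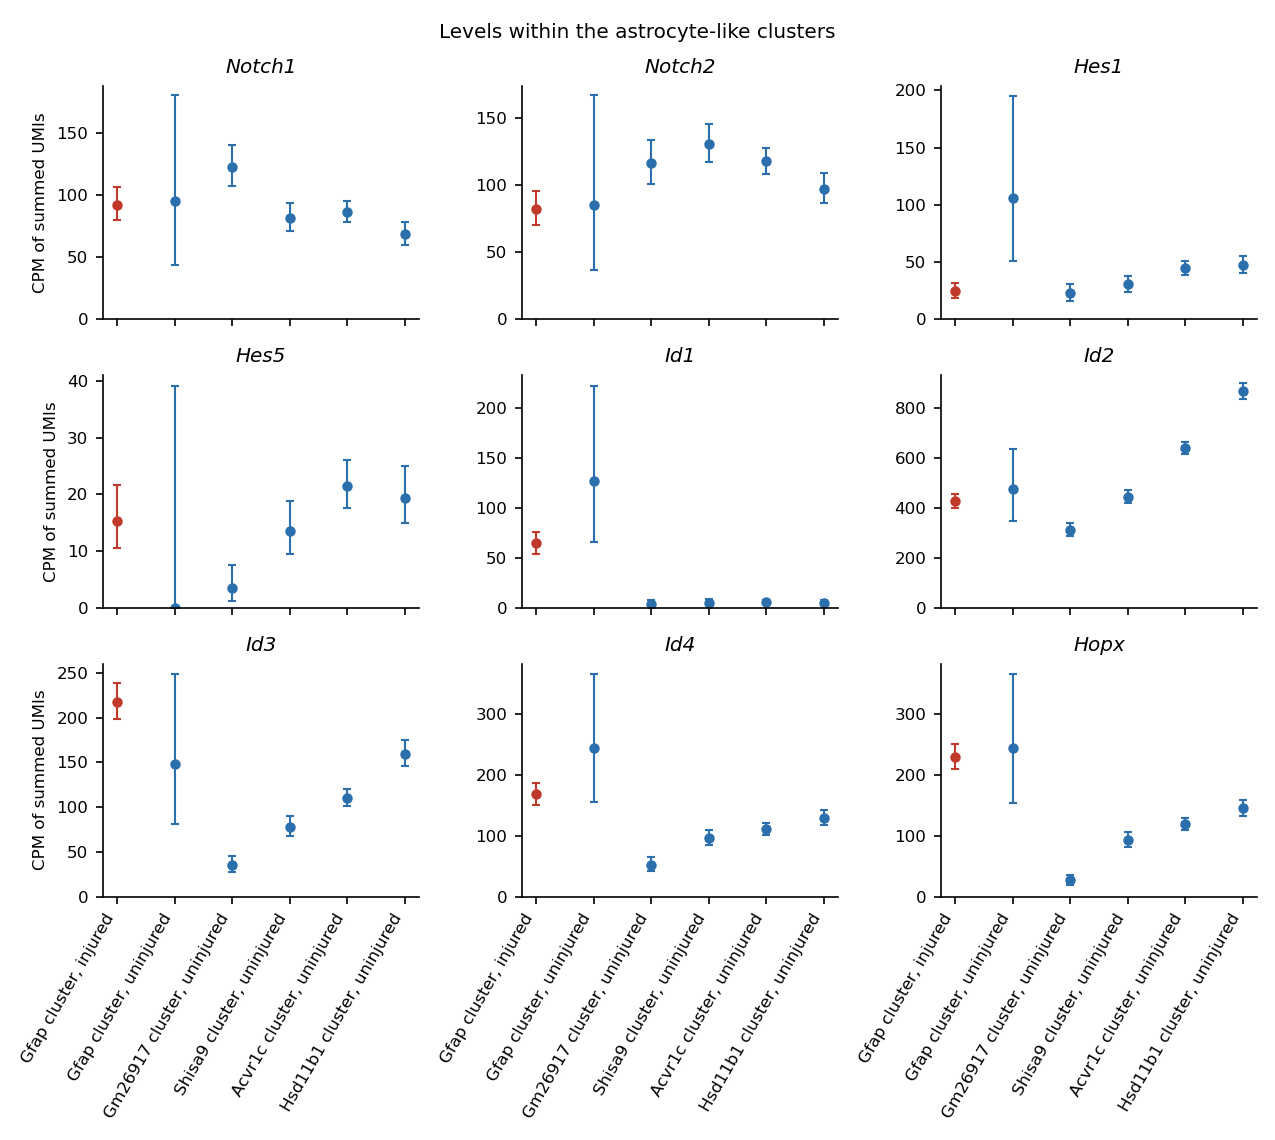
Level of each gene (CPM of summed UMIs, linear axis from 0, with a separate scale per gene) in the astrocyte-like clusters, named by their first leading gene, for both conditions of the Gfap cluster and the uninjured cells of the other 4; bars are exact Poisson 95% intervals, red is injured and blue uninjured. Id2, Id3, Id4 and Hopx were lowest in the uninjured Gm26917 cluster and highest among the 4 large uninjured clusters in the Hsd11b1 cluster.

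Within uninjured astrocyte-like cells the members differed between clusters that were made without them. The Hsd11b1 cluster (715 cells) had the highest levels among the 4 large clusters of Id2 (869 CPM, 837 to 903), Id3 (160 CPM, 146 to 174), Id4 (130 CPM, 117 to 143) and Hopx (145 CPM, 132 to 159). The Acvr1c cluster (1184 cells) followed, with 641, 110, 111 and 119 CPM, and the Shisa9 cluster (631 cells) had 445, 78.3, 96.5 and 93.8 CPM. The Gm26917 cluster had 312, 35.8, 52.5 and 26.6 CPM. This last cluster was shallow, with a median of 1908 UMIs per cell, and its part in the comparison of conditions is measured by leaving it out, which gave log2 ratios of 0.85 for Id3, 0.86 for Hopx and 3.12 for Id1. Notch1 had the opposite order at its ends, with 123 CPM (107 to 141) in the Gm26917 cluster and 68.4 CPM (59.6 to 78.2) in the Hsd11b1 cluster. Notch2 was at 130 CPM (117 to 145) in the Shisa9 cluster and 97.1 CPM (86.5 to 109) in the Hsd11b1 cluster.

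Hes5 was at 21.5 CPM in the Acvr1c, 19.4 in the Hsd11b1 and 13.6 in the Shisa9 cluster, with overlapping intervals, and at 3.46 CPM in the Gm26917 cluster. Hes1 ran from 22.5 CPM in the Gm26917 to 47.1 CPM in the Hsd11b1 cluster. Id1 was at 3.46 to 5.58 CPM in the 4 large uninjured clusters, with overlapping intervals. The 16 uninjured cells in the Gfap and Lcn2 cluster had 12 Id1 UMIs in 4 cells (127 CPM, 65.7 to 222), of which a single cell held 9. This Id1 level thus rested largely on that cell. The 338 injured cells of that cluster had 134 Id1 UMIs (64.4 CPM, 54.0 to 76.3). For Hopx the values were 244 CPM (155 to 366) and 229 CPM (209 to 251), and for Id4 244 CPM (155 to 366) and 168 CPM (151 to 186). In this cluster the intervals of uninjured and injured cells overlapped for Id1, Hopx and Id4, which with 16 uninjured cells is a description and no comparison of conditions. Hes1 was at 106 CPM (50.8 to 195, 10 UMIs) in the uninjured and 24.0 CPM (17.8 to 31.7) in the injured cells of the cluster.

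Single astrocyte-like cells, each thinned to 1000 UMIs, were then asked which members were found together, over 36 pairs per condition. In the uninjured library (3246 cells), 4 pairs had intervals that did not overlap, and in each the share was higher in cells with the first gene. Hopx was found in 28.6% (17.3 to 42.2%) of 56 cells with Hes5 and 8.28% (7.34 to 9.29%) of cells without it. Id4 was found in 23.2% (13.0 to 36.4%) of cells with Hes5 and 9.78% (8.77 to 10.9%) without it. Hopx was found in 17.5% of 325 cells with Id4 and 7.63% without it, and Id3 in 11.9% of 1322 cells with Id2 and 8.21% without it. In the injured library (356 cells), Id3 was found in 26.5% (18.1 to 36.4%) of 98 cells with Id2 and 7.36% (4.49 to 11.3%) without it, whereas Notch2 was found in 1 of 98 cells with Id2 (1.02%, 0.0258 to 5.55%) and 9.30% (6.05 to 13.5%) without it. These pairs were picked as those without overlap among 36 and are given as a description. The share among pairs of other genes was not counted, so the number of pairs is not read as particular to the members. The cells were also pooled over the astrocyte-like clusters, between which the levels of these genes differed, and the part of this in the pairs was not tested.

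Over the 11 class and condition groups of at least 20 cells, the pattern of each gene was set beside those of 8696 genes that reached 50 CPM in any of them. Pearson's r of log2(CPM + 1) is a description here, since the groups of 1 library share its depth and preparation. Among the members, Id1 and Id3 (r = 0.87) and Id4 and Hopx (r = 0.87) were most alike, and Hes1 and Hopx were most unlike (r = -0.71). The 3 genes nearest to Hes5 were Nkx2-2 (r = 0.98), Sez6l (0.97) and Pax3 (0.96), of which Nkx2-2 is a transcription factor of the oligodendrocyte lineage. Hes5 had no UMI or 1 UMI in every group except injured OPC-like cells and the astrocyte-like cells of both libraries. Its r thus rested on these groups, whose order in the injured library is not read above. Those nearest to Id3 were Vamp5 (0.97), Ece1 (0.96), the endothelin-converting enzyme, and Hdac7 (0.96), a histone deacetylase. Those nearest to Id1 were Rras (0.95), Cd151 (0.93) and Tprgl (0.93). Id4 was nearest to Ccdc162, Gm973 and 5031425E22Rik (0.97 each), Hopx to Arhgef4 (0.95), Mid1ip1 (0.93) and Gm16759 (0.93), and Hes1 to Magi3 (0.94), Ddx50 (0.90) and Dcun1d3 (0.89). Id2 was nearest to Ttyh3, Mcur1 and Itprid2 (0.91 each), Notch1 to Tmem245 (0.89), Phf20l1 (0.88) and Cds2 (0.86), and Notch2 to Itgb5 (0.88), Fgd4 (0.88) and Fnbp1 (0.86).

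**Figure D4:**
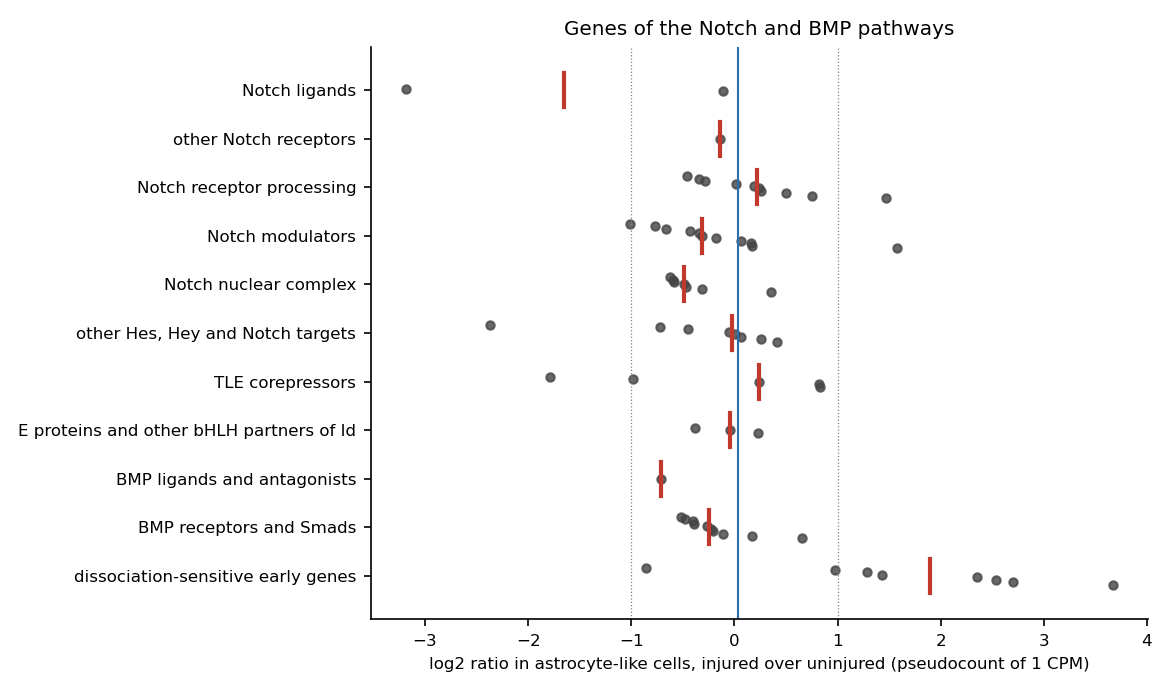
log2 ratio (1 CPM added) of each gene at 10 CPM or more in astrocyte-like cells, injured over uninjured, by list; red bars are list medians, the blue line is the median of all genes and dotted lines mark 2-fold. Most Notch and BMP pathway genes lay within 2-fold, while 6 of 8 early genes lay to the right of it.

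The other genes of the Notch and BMP pathways were taken from 10 lists of 84 genes, of which 58 were at 10 CPM or more in astrocyte-like cells. Of these, 2 were 2-fold or more higher in the injured library, against the 14.1% of all genes, and 4 were lower, against 7.24%, with a median log2 ratio of -0.22 beside 0.04 over all genes. The higher ones were Furin, a protease that cuts Notch precursors among many proteins, at 36.5 against 12.5 CPM (ratio 2.91, 2.20 to 3.84), and Numbl, a relative of the Notch inhibitor Numb, at 18.9 against 5.65 CPM (3.35, 2.23 to 4.97). The lower ones included the Notch ligand Jag1, with 3 against 252 UMIs (1.35 against 20.4 CPM, ratio 0.0664, 0.0136 to 0.196). Heyl, a Hes-related Notch target, was at 4.50 against 27.5 CPM (0.164, 0.0779 to 0.305), the corepressor Tle2 at 12.6 against 46.1 CPM (0.273, 0.180 to 0.399) and Numb itself at 35.1 against 71.9 CPM (0.489, 0.383 to 0.616).

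By role, 1 of 2 Notch ligands tested was 2-fold or more lower, 1 of 10 receptor-processing genes was higher, and among 11 modulators 1 was higher and 1 lower. None of 7 genes of the nuclear Notch complex passed 2-fold, with a median log2 ratio of -0.49, and Notch3, the receptor tested beside the members, lay at -0.14. Among 8 other Hes, Hey and Notch target genes 1 was lower and among 5 TLE corepressors 1 was lower. None of 3 bHLH partners of Id proteins, of 10 BMP receptors and Smads, or the single BMP ligand tested (Bmp7, log2 ratio -0.72) passed 2-fold. The BMP receptors and Smads had a median log2 ratio of -0.24, beside 3.16 for Id1, 0.96 for Id3, 0.64 for Id4 and -0.55 for Id2 in the same cells.

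**Figure D5:**
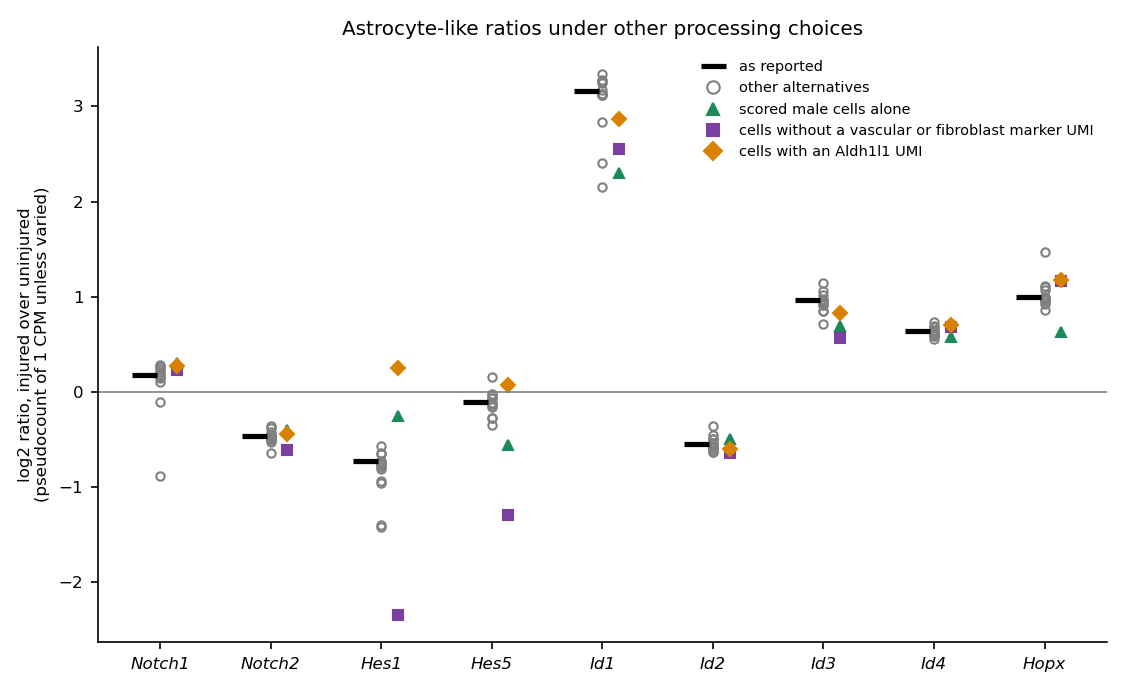
log2 ratio of each gene in astrocyte-like cells, injured over uninjured, as reported (black bars) and under the 16 other processing choices (open circles, with 3 choices of cells in colour). Id1, Id3, Id4 and Hopx stayed above 0 and Id2 and Notch2 below 0 under all 16, while Hes1, Hes5 and Notch1 crossed 0.

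Under 16 other choices of cells, scaling or pseudocount, Id1, Id3, Id4 and Hopx were higher and Id2 and Notch2 lower in injured astrocyte-like cells each time. Id1 ranged from 2.15 to 3.34, Id3 from 0.57 to 1.14, Hopx from 0.63 to 1.47, Id2 from -0.64 to -0.36 and Notch2 from -0.64 to -0.36 on the log2 scale. Hes1 ranged from -2.35 to 0.25, Hes5 from -1.29 to 0.16 and Notch1 from -0.88 to 0.30.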

How the data were processed

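The authors deposited raw UMI counts of genes and barcodes for each cell, as 1 matrix for the injured and 1 for the uninjured library. The file header names Cell Ranger 7.1.0, and the submitters' processing notes name Cell Ranger 8.0.1 and mm10. The 23 enhancer barcode features were not used. Cells were kept between 500 and 50000 gene UMIs, and the upper limit removed 40 injured cells. For clustering, counts were brought to 10000 per cell on a log scale. Leiden clusters at resolution 0.5 were taken from 15 neighbours in 15 principal components of 2000 variable genes, with scanpy 1.11.5 and igraph 0.11.9 in Python 3.11.15. Intervals came from scipy 1.17.1. Clustering used neither the 9 genes, nor the 96 pathway and early genes, nor the reporters EGFP and tdTomato-WPRE. A cluster was named by the highest mean marker level of 13 lists (above 0.2), with at least 3 markers in at least 10% of cells, no other list with more markers among the 10 leading genes, and enough depth.

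No doublets were removed. Scrublet marked 2 of 5038 cells (0.0397%), too few for the caller to have worked. Gene values are CPM of summed UMIs per class with exact Poisson intervals, shares have Clopper-Pearson intervals, and ratios have exact conditional binomial intervals. A gene was past 2-fold by log2 of CPM with 1 CPM added to both sides, among genes that reached 10 CPM in either condition. Cells scored male had a UMI of a Y-linked gene (Uty, Kdm5d, Eif2s3y, Ddx3y) and none of Xist, and cells scored female the reverse. A count of 0 was given a limit of 3 counts. Named were all 9 members, the pathway genes past 2-fold and the 3 genes most like each member, and those named besides, such as Notch3, Bmp7 and the cluster leaders, were chosen after their values were seen. The members, lists and alternatives were chosen with earlier results of these data known. Gene positions came from GENCODE on GRCm38, where 32235 of 32285 identifiers matched (99.8%). On simulated data with 200 of 9396 genes changed 4-fold in all cells, 100% were recovered past 2-fold and 95.7% of intervals covered the true ratio. These counts were Poisson draws on the summed libraries, which is the model the intervals assume. The simulation thus checks the arithmetic only. It held no uneven counts between cells and no small classes, where the intervals can be too narrow. Figures were drawn with matplotlib 3.10.9.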

Additional observations from a re-analysis of the deposited data

Results flagged for a closer look

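For Id1, Id3, Id4, Hopx and Id2 the astrocyte-like cells and another class lay on opposite sides of equality between injured and uninjured cells, each with an interval that excluded 1. How many of all genes would meet this rule was not counted, so it is not read as particular to these members. With 1 library per condition these differences between classes were not tested. Id1 had a log2 ratio of 3.16 in astrocyte-like cells and -0.42 in endothelial-like cells. Id3 had 0.96 in astrocyte-like cells and -0.60 in endothelial-like cells. For both genes the intervals of the thinned shares of endothelial-like cells overlapped between conditions. Id4 had 0.64 in astrocyte-like cells and -1.35 in ependymal-like cells, where the intervals of the thinned shares also overlapped between conditions. Hopx had 1.00 in astrocyte-like cells and -3.22 in fibroblast-like cells, where the latter rested on 1 and 7 UMIs. Id2 had -0.55 in astrocyte-like cells and 1.09 in microglia or macrophage-like cells, where the uninjured group had 17 UMIs.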

How the results depend on the processing

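No paired analysis was possible because a single library stood for each condition. The number of members 2-fold or more higher in injured astrocyte-like cells, 1 as reported, was 2 with a pseudocount of 0.1 CPM, with at least 1000 gene UMIs per cell, in cells with an Aldh1l1 UMI, with the mean over cells, after thinning and without cells with a UMI of an endothelial, mural or fibroblast marker, and 3 with the members left in the clustering or with totals without mitochondrial and ribosomal protein genes. The number lower, 0 as reported, was 1 with the mean over cells and after thinning and 2 without marker-positive cells. Pathway genes higher, 2 as reported, were 1 with a pseudocount of 10 CPM and in cells with an Aldh1l1 UMI, 6 after thinning, 0 at 50 CPM or more, and 4 with no minimum level and without marker-positive cells. Pathway genes lower, 4 as reported, were 8 after thinning, 1 at 50 CPM or more and 7 without marker-positive cells. Hes1 reversed in cells with an Aldh1l1 UMI, to a log2 ratio of 0.25. The cause of these changes was not tested, except that the level minimum alters which genes are counted. Totals without mitochondrial and ribosomal protein genes moved the median of all genes from 0.04 to 0.14. Of the class levels, 9 of 99 moved beyond their intervals without the highest 5% of Scrublet scores (Hes1, Id2 and Hopx in OPC-like, Id1 and Id3 in astrocyte-like, Id2 and Id3 in fibroblast-like, Id1 in microglia or macrophage-like and Hopx in ependymal-like injured cells). With at least 1000 UMIs 3 moved (Id2 in uninjured ependymal-like, Id4 and Hopx in injured OPC-like cells), and none at Leiden resolution 1.0. Leaving out the Gm26917 cluster or the marker-positive cells was chosen after seeing the data. Depth limits Hes1 and Hes5 most, with 52 and 34 UMIs in injured astrocyte-like cells, and the classes with 26 to 32 uninjured cells.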

Other observations

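A cluster led by Nefl, Ptgds and Snap25, of which Nefl and Snap25 are neuronal genes, scored highest on the astrocyte markers and stayed unnamed. It held 639 uninjured cells, with 11.7% of UMIs from mitochondrial genes, and 30 injured cells, with 27.4%. Its uninjured cells had 541 CPM of Id2 (512 to 572), 83.3 CPM of Id3 (72.0 to 95.9), 82.0 CPM of Id4 (70.8 to 94.5), 68.8 CPM of Hopx (58.6 to 80.3), 80.8 CPM of Notch1 (69.7 to 93.1) and 104 CPM of Notch2 (91.2 to 118). Hes1 was there at 35.0 CPM (27.9 to 43.5), Hes5 at 3.42 CPM (1.48 to 6.74) and Id1 at 3.85 CPM (1.76 to 7.30). The 13 injured mural-like cells, whose cluster was led by Rgs5 and Vtn, had 17 Hes1 UMIs in 6 cells (200 CPM), 13 Id3 UMIs in 3 cells, 6 Notch1 UMIs and 8 Hopx UMIs, and no UMI of Hes5, Id1, Id2 or Id4.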
